A study of Mus musculus with 4 samples.

Results

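The MAP3K kinases described here are 9 genes, Map3k1, Map3k2, Map3k3, Map3k4, Map3k5, Map3k7, Map3k8, Map3k11 and Map3k14, of 55335 annotated genes in the count tables. The set was chosen by the values of Map3k4 in these same libraries, where it stood among the higher genes with the lowest p between genotypes, and the other 8 are relatives taken by name. The difference of Map3k4 between genotypes is therefore a description with no test. Throughout, a pair of values for a genotype stands in the order library 1, library 2. The study sequenced RNA of CD4+ T cells, as the labels call them, of the dorsal skin of mice with imiquimod-induced, psoriasis-like inflammation, in 2 genotypes with 2 libraries each. Control 1 and control 2 came from Mettl3fl/fl mice, which carry floxed alleles of Mettl3, and knockout 1 and knockout 2 from Mettl3fl/fl;Cd4-Cre mice, in which Cre under the Cd4 promoter deletes the floxed part in developing T cells. Mettl3 is the enzyme that writes N6-methyladenosine (m6A) on RNA. All mice were 8 to 12 weeks old and received imiquimod cream (5%) on the back for 5 days, at 15 or 62.5 mg a day, with no statement of the amount per animal in the sources used here. No group was left without imiquimod, and whether a library held 1 mouse or a pool is not given either, so that tests measure only the spread between these libraries.

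MAP3K kinases are the top tier of the MAPK cascades. They phosphorylate a MAP2K, which phosphorylates a MAPK of the ERK, JNK or p38 type, and they are switched on by upstream receptors, stress or partner proteins. In T cells they carry antigen receptor and cytokine signals, and in macrophages and keratinocytes those of Toll-like receptors, interleukin-1 and tumour necrosis factor. Map3k7 and Map3k14 also feed the canonical and the non-canonical NF-kB pathway.

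Of the 208 fragments assigned to Map3k4, 204 were counted in an entry that is mostly intron. This is an exon entry annotated only for the retained-intron transcript Map3k4-207 (GRCm38 chr17:12274598-12278111, minus strand). It consists of the 191 bases of the exon 2 that protein-coding transcripts also use and of the 3323 intron bases that follow it (chr17:12274598-12277920). Because fragments overlapping several annotated exons were as a rule not counted, countable bases lay in the intron part alone. Its sequences, from the GENCODE M21 transcript on GRCm38, are shown at the exon border and around its longest runs of T and of A, in the direction of transcription. Capitals mark the first 6 intron bases in the exon border sequence and the run in the others.

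Exon 2 end and intron start (chr17:12277891-12277944): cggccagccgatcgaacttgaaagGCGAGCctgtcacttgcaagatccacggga

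Longest T run (chr17:12276369-12276432): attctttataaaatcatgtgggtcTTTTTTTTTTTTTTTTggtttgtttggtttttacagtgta

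Longest A run (chr17:12276292-12276345): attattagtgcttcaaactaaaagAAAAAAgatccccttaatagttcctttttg

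The intron opens with GC, where most introns open with GT. Its longest run of A on the annotated strand has 6 bases, and 83.4% of 697 retained-intron exons within 10% of its length hold a run of A at least as long. Its longest run of T has 16 bases, and 7.46% of those exons hold one at least as long. The motif GGACT, the commonest form of the site that Mettl3 methylates, occurs 4 times in the entry on the annotated strand, 3 of them in the intron, and 2 times on the opposite strand. The same 697 exons have a median of 3 on the annotated strand, and 94.5% hold at least 1, with 92.1% on the opposite strand. These are matches of letters, and methylation was not measured.

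Libraries held 3614418 to 4537006 fragments, and control 2 stood apart. Of 12434 tested genes, 32.7% were at 0 in control 2, while the shares were 1.84% for control 1, 1.78% for knockout 1 and 6.92% for knockout 2. Among the 8 tested kinases, 4 (50%) were at 0 in control 2, namely Map3k5, Map3k11, Map3k14 and Map3k4, which was chosen by its values. The untested Map3k7 was at 0 there too. T cell markers were uneven between libraries. All 15 of the list were tested, and their summed level, in CPM (fragments scaled to a common library total with TMM factors), was 1117 and 330.5 among controls against 323.0 and 165.5 among knockouts. Cd4 gave 777 and 0 fragments among controls against 420 and 9 among knockouts, and 5 of the 15 markers were at 0 in control 2 and 4 in knockout 2, Lck, Cd5 and Cd247 in both. Macrophage and monocyte markers (14 genes) summed to 21139 and 10336 CPM among controls against 33301 and 30190 among knockouts, and keratinocyte markers (12 genes) to 1863 and 25263 CPM against 2570 and 1165. Fibroblast markers (9 genes) summed to 12295 and 2705 CPM among controls against 5638 and 5786 among knockouts, and neutrophil markers (9 genes, S100a9 at 0 in every library) to 1750 and 572.0 against 4896 and 2685. The neutrophil sum rests largely on Mxd1, at 1282 and 251.6 CPM among controls against 3041 and 1455 among knockouts, and 5 of the 9 genes were tested. Endothelial markers (5 genes) summed to 37.1 CPM or less, mast cell markers (6 genes) to 168.1 and 81.3 CPM against 137.0 and 364.5, and dendritic and Langerhans cell markers (6 genes) to 1657 and 269.0 against 1244 and 639.5. The part that these other cells play in any difference below was not tested, and fewer cells of a type cannot be told apart from less RNA per cell. Mettl3 itself gave 195 and 49 fragments among controls against 121 and 158 among knockouts, 89.9% of them in retained-intron entries, so it does not check the deletion.

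The kinases differed in how much of their sequence could be counted. Fragments were assigned to exon entries rather than to genes, and 64.8% of all entries share their coordinates with another and held no fragment. Map3k2 kept 12960 countable bases, Map3k1 kept 5871, Map3k4 kept 4896, Map3k14 kept 4732, Map3k3 kept 3540, Map3k8 kept 2210, Map3k5 kept 1773, Map3k11 kept 787 and Map3k7 kept 673. For Map3k1, Map3k2, Map3k3, Map3k5 and Map3k14 these included 1043 to 8629 bases of the last exon of a protein-coding transcript. For Map3k4 and Map3k7 they included none, for Map3k11 8 bases and for Map3k8 13. The 9 genes together held 82.0% of their 12652 fragments in such last exons (exact 95% interval 81.3 to 82.7, which covers counting error only). By library the share ran from 75.1% in knockout 1 to 88.5% in control 2, against 65.3% to 69.7% of all fragments. Most of these last-exon fragments came from Map3k1, Map3k2 and Map3k3, and Map3k4, Map3k7, Map3k8 and Map3k11 gave 0.

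Per kilobase of countable sequence, Map3k3 had the highest mean level over the 4 libraries and Map3k7 the lowest. Map3k3 was at 58.5 CPM per kilobase (43.9 to 71.1 over the libraries), Map3k1 at 38.7 (21.1 to 63.2) and Map3k8 at 21.2 (7.49 to 49.5). Map3k14 followed at 16.97, Map3k11 at 15.99 and Map3k5 at 15.5, each from 0 in control 2 to 36.4, 40.9 and 23.1, and Map3k2 was at 10.6 (8.05 to 13.7). Map3k4 was at 2.56 (0 to 6.52) and Map3k7 at 2.28 (0 to 5.97). Neighbours in this order overlapped in range, except that every library of Map3k2 lay above every library of Map3k4. The lowest value of Map3k3 lay above the highest of Map3k14, Map3k11, Map3k5, Map3k2, Map3k4 and Map3k7. This order depends on which bases could be counted. Map3k2 had 8629 countable bases in its last exon, and Map3k4 and Map3k7 had 0. Without division by length, the mean was 227.3 CPM for Map3k1, 206.9 for Map3k3 and 137.3 for Map3k2.

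**Figure D1:**
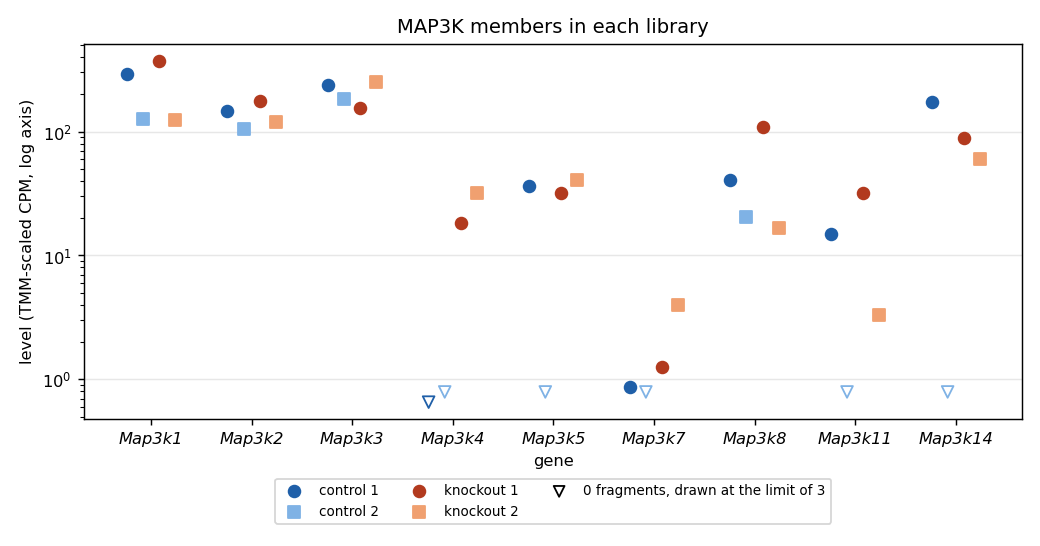
Level of the 9 kinases in each library, in TMM-scaled CPM on a log axis, with 1 point per library and no error bar. Open triangles stand for 0 fragments and are drawn at the limit that 3 fragments set (0.655 CPM in control 1 and 0.792 in control 2). Control 2 has 5 triangles, and Map3k4 has triangles in both controls and points at 18.2 and 31.9 CPM in the knockouts.

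Between genotypes, 0 of the 7 relatives that could be tested passed the threshold, as was so for every gene of the main test. In edgeR's quasi-likelihood test 0 of 12434 genes were called (0.00%), with a Benjamini-Hochberg adjusted p of 0.9997 for each relative, while 187 genes (1.5%) had an unadjusted p under 0.05. A p that misses the threshold does not show that the levels were alike. DESeq2 called 17 genes (0.137%), 4 higher (0.0322%) and 13 lower (0.105%) in the knockouts, and edgeR with no low-count filter 27 of 24651 (0.11%), 8 higher (0.0325%) and 19 lower (0.0771%). Of the relatives 0 were called by either, and Map3k4, whose values chose it, was among the 4 of DESeq2. With Map3k4 included, 6 of 8 log2 fold changes of knockout over control were positive, with a median of 0.62, against 56.9% and a median of 0.20 over all tested genes. Map3k4, whose values chose the set, is 1 of these 6. Among the 7 relatives alone the middle value was that of Map3k1, 0.25, beside the 0.20 of all genes. With control 2 left out, 9 kinases could be tested and their median was 0.02, beside 0.05 for all genes. With control 1 left out it was 6.44, beside 1.72 for all genes, because 5 kinases are then compared with 0 fragments.

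Map3k4 (ENSMUSG00000014426, chr17:12227621-12318796, minus strand) encodes MEKK4, which binds GADD45 proteins and activates the p38 and JNK cascades. It gave 0 and 0 fragments among controls against 73 and 135 among knockouts. The groups did not overlap. The mean of 25.1 ± 9.68 CPM in the knockouts (SD, n = 2) was 34.7-fold above the mean control limit of 3 fragments per library. The lower knockout was 23.01-fold above the higher control limit. This limit covers counting within a library and not the spread between libraries, so neither fold bounds the difference between genotypes. Control 2 was at 0 for 32.7% of all tested genes. Both knockouts lay above both controls for 19.5% of all tested genes, and Map3k4 was the 1 of 8 tested kinases for which this was so. Both knockouts lay below both controls for 0 of the 8 and for 11.2% of all tested genes. In all, 118 genes (0.949%) had 0 fragments in both controls and more than 3 in each knockout.

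The intron entry of Map3k4 held 69 fragments in knockout 1 and 135 in knockout 2, or 98.1% of the gene's fragments over all libraries (exact interval 95.2 to 99.5). The 4 others, in knockout 1, lay in exon 17 of the protein-coding transcript Map3k4-201 (chr17:12242650-12242805). Besides the intron, 6 further entries could receive fragments, with 534 countable bases in exons of protein-coding transcripts, and 5 of these 6 were at 0 in every library. Fragments of protein-coding exons were thus counted through 534 bases only, and none was detectable at this depth in either control, where 3 fragments would be 0.655 and 0.792 CPM, or in knockout 2. Counting ignored strand, so RNA of the opposite strand cannot be told apart. Among tested genes, 10.6% had at least 90% of their fragments in retained-intron entries, and among the 118 genes at 0 in both controls 8.47% did. The summed macrophage and neutrophil markers given above had both knockouts above both controls. So did 10 of 13 and 5 of 5 tested genes of these lists, against 19.5% of all tested genes, with 0 past the threshold. Both knockouts lay below both controls for 6 of 15 T cell and 4 of 12 keratinocyte markers, against 11.2% of all tested genes, and above for 0 of either list. Which cells supplied these fragments was not tested.

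**Figure D2:**
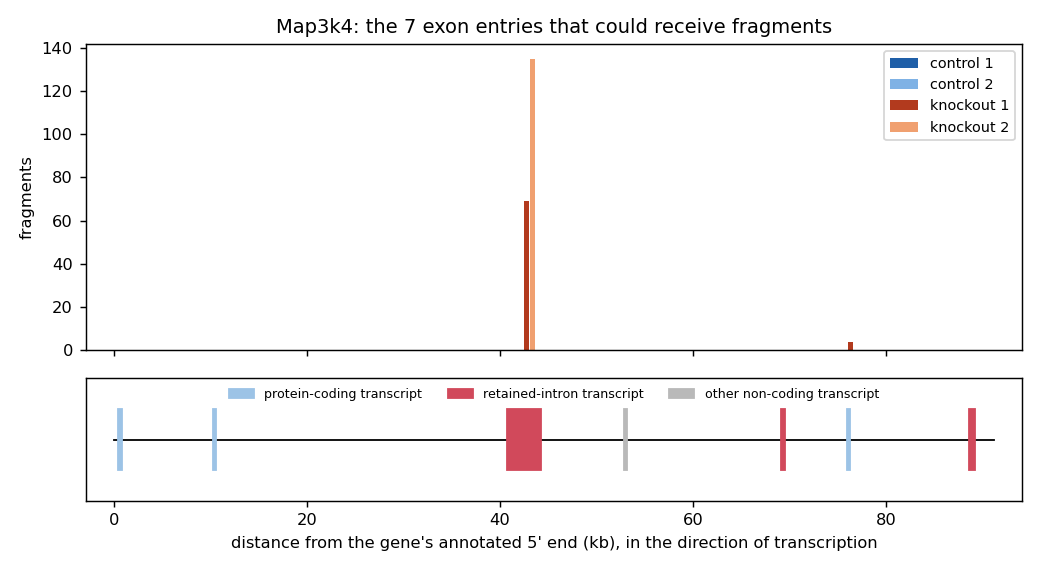
Fragments in the 7 exon entries of Map3k4 with countable bases, by library (upper panel, bars), over their place along the gene (lower panel, boxes, drawn at a minimum width), with distance in kilobases from the annotated 5' end. The retained-intron entry at 40.7 to 44.2 kb holds 69 fragments in knockout 1 and 135 in knockout 2, and both controls are at 0 everywhere.

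Genes most like Map3k4 across the 4 libraries, by Euclidean distance between centred profiles of log2(CPM + 1) among tested named genes at a mean of at least 5 CPM, included Zfp456 (0.89), Serpini1 (0.94), Rfx2 (1.08) and Opn3 (1.10). Zfp456 gave 0 and 0 fragments among controls against 48 and 62 among knockouts, and Serpini1 1 and 0 against 82 and 70. Rfx2, with all of its fragments in retained-intron entries, had 0 and 0 against 42 and 53, and Opn3 0 and 0 against 37 and 55. The likeness rests on 4 libraries. It says only that these genes were near 0 in both controls and rose in the knockouts by an amount near that of Map3k4 on the log scale.

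The levels of the Gadd45 genes, whose products activate MEKK4, overlapped between the genotypes. Gadd45b was at 903.5 and 562.2 CPM among controls against 728.8 and 850.1 among knockouts, with a log2 fold change of 0.11 ± 0.52 (SE). Gadd45g was at 386.2 and 387.0 CPM against 282.3 and 670.4, and Gadd45a at 65.7 and 53.6 against 38.4 and 99.998. For Gadd45a and Gadd45g, knockout 1 was the lowest library and knockout 2 the highest, while Gadd45b was highest in control 1.

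Map3k1 (ENSMUSG00000021754, chr13:111746428-111808993) encodes MEKK1, a kinase that is also a ubiquitin ligase. Its level was 289.5 and 125.4 CPM among controls, and 370.9 and 123.6 among knockouts. Each genotype thus had 1 high and 1 low library, and the log2 fold change was 0.25 ± 0.81 (SE). It turned to -0.23 without control 2 and to -0.73 without knockout 1. The last exon held 95.0% of its fragments in control 1, 97.8% in knockout 1 and 99.2% in knockout 2. In control 2 it held 77.3% (exact interval 73.2 to 81.0), and all other fragments of that library lay in 2 neighbouring exons, 40 in exon 7 and 68 in exon 8 (chr13:111763499-111763580), which together had 13 in knockout 1 and 0 in the other libraries.

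Map3k2 and Map3k3 encode MEKK2 and MEKK3, closely related kinases that activate MAP2K5 and the ERK5 cascade. Map3k2 (ENSMUSG00000024383, chr18:32163089-32236751) stood at 146.5 and 104.3 CPM among controls, and 178.0 and 120.3 among knockouts, and its groups overlapped. Its log2 fold change was 0.25 ± 0.65 (SE), and its last exon held 96.7% of fragments. Map3k3 (ENSMUSG00000020700, chr11:106084613-106155446) was at 236.0 and 184.8 CPM among controls against 155.2 and 251.8 among knockouts, so that the knockouts were the lowest and the highest library, with a log2 fold change of -0.05 ± 0.60.

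Map3k3 is the member with most countable exons, and its last-exon share was highest in control 2, where that of Map3k1 was lowest. Over all genes, the share of control 2 was 67.9%, within the range of the other libraries. The 700 fragments of Map3k3 in control 2 all lay in the last exon (chr11:106153966-106155446), with an exact interval of 99.5% to 100%. In control 1 the last exon held 91.6% of 1081 fragments, in knockout 2 90.5% of 1065 and in knockout 1 83.0% of 622 (79.8 to 85.8). Fragments were found in 14 entries in control 1, 14 in knockout 1, 11 in knockout 2 and 1 in control 2.

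Map3k5 (ENSMUSG00000071369, chr10:19934472-20142753) encodes ASK1, which thioredoxin holds inactive until oxidative stress. It gave 168 and 0 fragments among controls against 129 and 173 among knockouts (36.7, 0, 32.2 and 40.9 CPM). The 3 libraries with fragments were close to each other, and the log2 fold change of 0.99 ± 2.26 (SE) was -0.01 without control 2. Txn1, the thioredoxin that binds ASK1, stood at 402.3 and 1058 CPM among controls, and 474.7 and 493.1 among knockouts, highest in the library in which Map3k5 was at 0 and keratinocyte markers were highest. Its log2 fold change was -0.59 ± 0.64. That library, control 2, was at 0 for 32.7% of all tested genes, and any link between these values was not tested.

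Map3k11 (ENSMUSG00000004054, chr19:5688742-5702865) encodes MLK3, which binds the GTPases Cdc42 and Rac1 and activates JNK. It gave 68 and 0 fragments among controls against 129 and 14 among knockouts (14.8, 0, 32.2 and 3.31 CPM). The knockouts lay on both sides of control 1, and the log2 fold change of 1.25 ± 2.50 (SE) was 0.25 without control 2 and -1.17 without knockout 1. Of its fragments, 94.8% lay in exon 3. Cdc42 was at 1528 and 885.3 CPM among controls against 2325 and 1579 among knockouts, with both knockouts above both controls and a log2 fold change of 0.69 ± 0.54 that did not pass the threshold.

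Map3k7 (ENSMUSG00000028284, chr4:31964097-32023467) encodes TAK1, which works with TAB proteins below interleukin-1, Toll-like and T cell receptors. It gave 4 and 0 fragments among controls against 5 and 17 among knockouts, too few to test. All 26 lay in an exon of a processed transcript (chr4:31992387-31992775), and coding exons offered 23 countable bases, and none of the 26 lay there. Of its partners, Tab1 was at 57.6 and 3.17 CPM among controls against 71.4 and 37.4 among knockouts, Tab2 at 205.4 and 111.9 against 174.5 and 159.6, and Tab3 at 34.7 and 51.5 against 62.6 and 15.4, and the groups overlapped for each of them.

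Map3k8 (ENSMUSG00000024235, chr18:4331327-4353015) encodes TPL2, which p105, the product of Nfkb1, holds inactive and which activates Map2k1 when Toll-like receptors are engaged. It gave 186 and 78 fragments among controls against 438 and 70 among knockouts (40.6, 20.6, 109.3 and 16.5 CPM). Knockout 1 was the highest library and knockout 2 the lowest. The log2 fold change was 1.04 ± 1.24 (SE), -0.86 without knockout 1, and 0.77 without retained-intron entries.

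Part of the fragments of Map3k8 in knockout 1 lay in an intron. Retained-intron entries held 123 of its 438 fragments there, 28.1% (exact interval 23.9 to 32.5), against 6.45% for control 1 (3.378 to 10.998) and 5.71% for knockout 2 (1.579 to 13.99). In control 2 all 78 lay in exon 4 (chr18:4340547-4340808). Exon 4 alone had 173 and 78 fragments among controls against 315 and 65 among knockouts, with knockout 1 still the highest. Nfkb1 was at 194.3 and 293.3 CPM among controls against 296.3 and 293.4 among knockouts, with knockout 2 hardly above control 2, and Map2k1 at 185.3 and 228.3 against 407.1 and 252.9 (log2 fold change 0.67 ± 0.58).

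Map3k14 (ENSMUSG00000020941, chr11:103219762-103267472) encodes NIK, the kinase of the non-canonical NF-kB pathway, which TRAF3, TRAF2 and the cIAP proteins keep at a low level in resting cells. It gave 788 and 0 fragments among controls against 355 and 256 among knockouts (172.0, 0, 88.6 and 60.5 CPM). The controls were the highest and the lowest library. The log2 fold change was -0.21 ± 2.28 (SE), or -1.21 without control 2, and against control 2 alone no fold is given, since it is at 0. The summed markers of T cells, fibroblasts, and dendritic and Langerhans cells were also highest in control 1. In control 2, where Map3k14 was at 0, those of T cells were at 330.5 CPM, close to the 323.0 of knockout 1 and above the 165.5 of knockout 2. Those of fibroblasts (2705 CPM) and of dendritic and Langerhans cells (269.0 CPM) were lowest in control 2. Which cells supplied the fragments of Map3k14 was not tested. At the mean level of Map3k14 or above, 74 tested genes (3.07%) had no fragment in control 2.

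Along Map3k14, the share of fragments in coding exons other than the last was lowest in knockout 2. These exons held 22.1% of fragments of control 1 (19.2 to 25.1), 36.6% of those of knockout 1 (31.6 to 41.9) and 3.91% of those of knockout 2 (1.89 to 7.07). The last exon of the processed transcript Map3k14-203 (chr11:103237030-103239552) held 70, 26 and 51 fragments in these 3 libraries. A list of 5 NF-kB genes held Nfkb2, Relb and Chuk of the non-canonical pathway and Ikbkb and Ikbkg of the canonical IKK complex. Of these, 4 were tested and 0 passed the threshold, with a median log2 fold change of 0.97 that was 0.44 without control 2. Both knockouts lay above both controls for 1 of the 4, against 19.5% of all tested genes. Nfkb2, which encodes p100, gave 210 and 0 fragments among controls against 143 and 178 among knockouts, and Chuk, which encodes the kinase IKKα, 10 and 0 against 36 and 25, all in retained-intron entries. Ikbkb was at 76.6 and 34.3 CPM among controls against 161.2 and 66.0 among knockouts, with 93.0% of fragments in retained-intron entries. Traf3 gave 9 and 0 fragments among controls and 0 in both knockouts, too few to test.

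**Figure D3:**
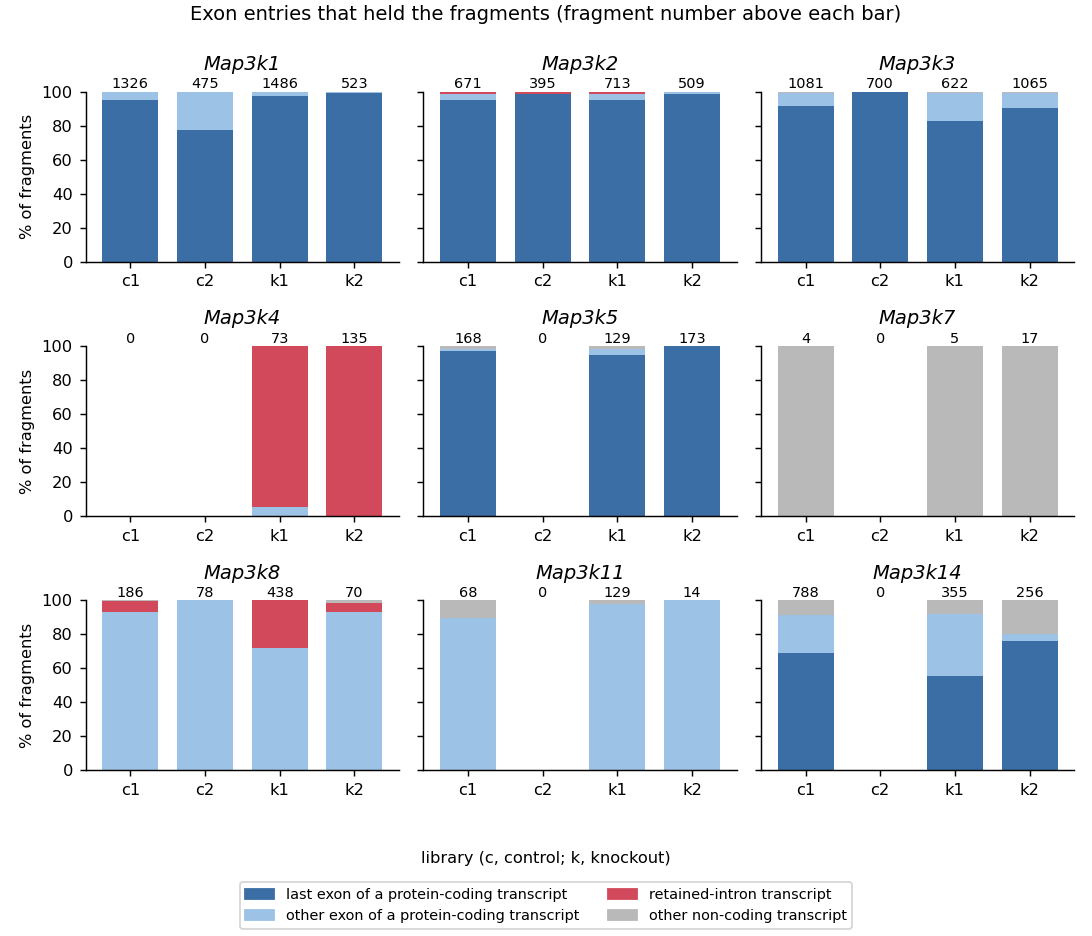
Share of each kinase's fragments in 4 kinds of exon entry, in percent, with 1 bar per library and the number of fragments above it. Map3k4 in the knockouts and part of Map3k8 in knockout 1 (28.1%) lie in retained-intron entries, while Map3k1, Map3k2, Map3k3 and Map3k5 lie mostly in last exons.

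**Figure D4:**
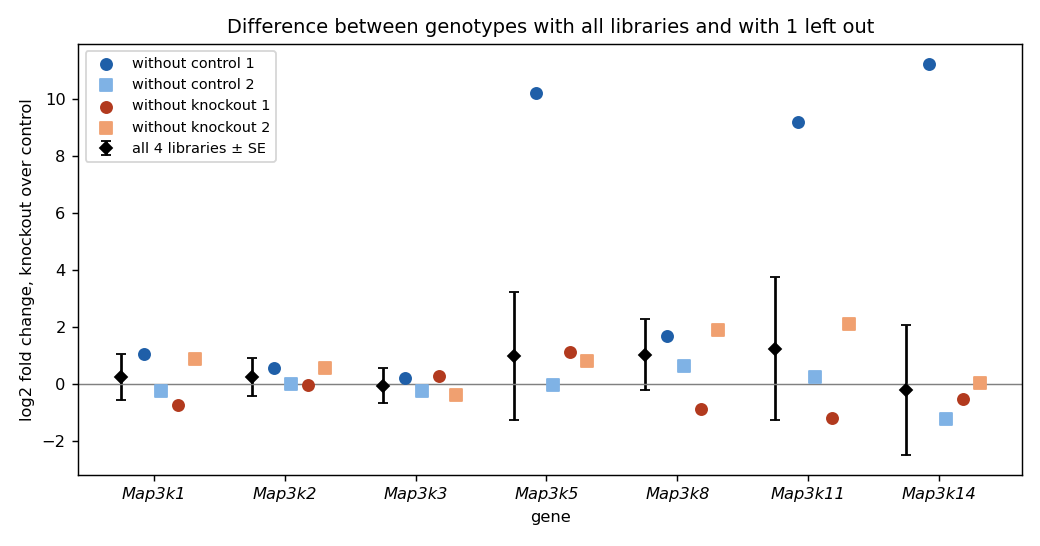
Log2 fold change of knockout over control for the 7 tested kinases other than Map3k4, with all 4 libraries (diamonds, ± SE) and with 1 library left out (coloured points). Without control 1 the values of Map3k5, Map3k11 and Map3k14 lie between 9.18 and 11.25 because control 2 has 0 fragments, and they depend on the prior count of the fit. The diamonds of these 3 genes have standard errors of 2.26 to 2.50.

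Other MAP3K kinases mostly had their higher values in the knockouts, without passing the threshold. Of 13 listed (the RAF kinases included), 7 could be tested, 6 had a positive log2 fold change, 5 had both knockouts above both controls, against 19.5% of all tested genes, and 0 passed the threshold. Their median was 1.08, and 0.71 without control 2. Map3k20, which encodes the ribosome stress kinase ZAK, was at 110.9 and 50.7 CPM among controls against 173.5 and 167.1 among knockouts (log2 fold change 1.08 ± 0.72, SE). Braf was at 126.0 and 105.6 CPM against 247.6 and 166.0 (0.84 ± 0.62), and Araf at 18.6 and 11.9 against 62.6 and 37.4 (1.71 ± 1.09), with 52.9% of the fragments of Araf in retained-intron entries. Map3k12, the dual leucine zipper kinase of neurons, was at 32.5 and 52.5 CPM against 18.7 and 50.4, without separation, with 87.1% of fragments in retained-intron entries. The difference between this list and the 9 kinases was not tested, and the summed macrophage and neutrophil markers lay on the same side.

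The lower tiers of the cascade showed no gene past the threshold. Of 7 MAP2K genes, 5 were tested, with a median log2 fold change of 0.67 that was -0.07 without control 2. Map2k4, which activates JNK, was at 116.8 and 194.5 CPM among controls against 160.2 and 255.1 among knockouts, and Map2k2 at 65.9 and 59.1 against 40.7 and 71.2. Of 10 MAPK genes, 4 were tested, with 2 positive and 2 negative values and a median of 0.06 that turned to -0.22 at a minimum mean of 5 CPM and to -0.12 without a low-count filter.

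Mapk8, which encodes JNK1, was at 40.6 and 110.1 CPM among controls against 42.9 and 28.6 among knockouts, highest in control 2, with a log2 fold change of -1.07 ± 0.97 (SE). Mapk7, which encodes ERK5, was at 18.6 and 4.49 against 19.7 and 9.93, and Mapk3, which encodes ERK1, at 3.71 and 1.85 against 4.99 and 7.09. Mapk14, which encodes p38α, had 0 fragments in 3 libraries and 2 in knockout 2, too few to read. Of 20 partners of the kinases, 17 were tested and 14 were positive (56.9% over all genes), with a median of 0.19 (-0.03 without knockout 1), beside 0.20 for all genes, and 3 of the 17 (17.6%) had both knockouts above both controls, against 19.5% of all tested genes.

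**Figure D5:**
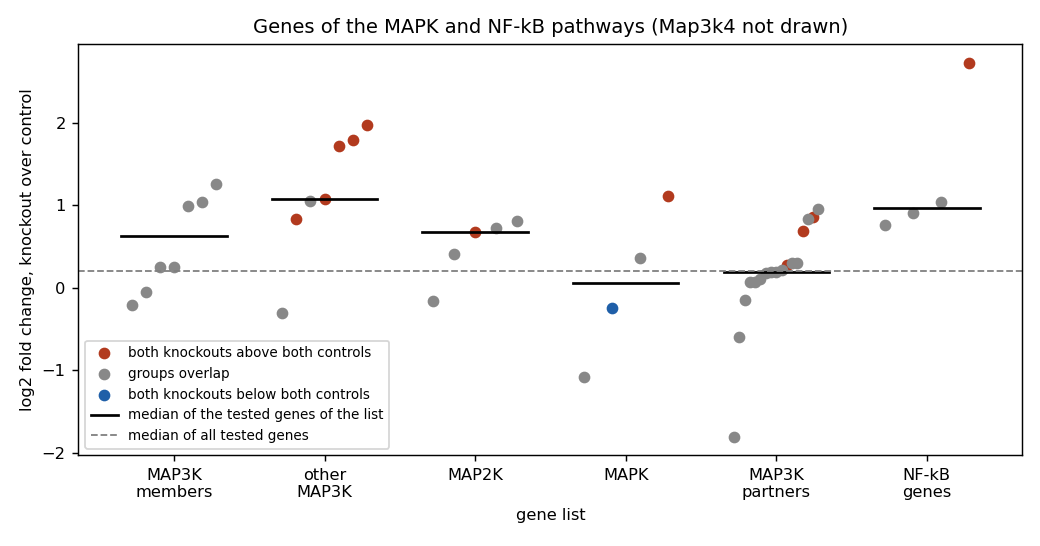
Log2 fold change of knockout over control for each tested gene of 6 lists (points, Map3k4 not drawn), with the median of each list (solid line, Map3k4 included) and of all tested genes (dashed line, 0.20). Colours show whether the 2 groups overlap, and 5 of the 7 other MAP3K genes have both knockouts above both controls.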

How the data were processed

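The 4 RNA-seq libraries were analysed from the deposited raw counts of fragments per annotated exon. Per the file headers, the authors counted with featureCounts 2.0.1 (both ends mapped, not chimeric, no strand, exon level) on GRCm38 with GENCODE M23. STAR 2.7.9a and Trim Galore 0.6.7 are named in the submitters' processing notes, without parameters. A fragment overlapping several entries was as a rule not counted (0.127% of fragments lay in entries with no base of their own). A gene's sum thus reflects mainly bases covered by 1 entry, and these can come from several transcripts. Transcript use, introns and fragment length can move the sum. Without strand, RNA of the opposite strand is counted too.

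Entries were summed per gene and symbols matched for 55154 of 55335 identifiers. Countable bases are those covered by 1 entry only. Transcript types came from GENCODE M21, in which 99.7% of entries have the same gene and coordinates. The genotypes were compared with a two-sided quasi-likelihood test in edgeR 4.0.16 under R 4.3.3, using TMM factors, genes kept by filterByExpr (minimum count 10), no covariates and Benjamini-Hochberg adjustment at 0.05. Alternatives were RLE and upper-quartile factors, no filter, a mean of at least 5 CPM, DESeq2 1.42.0, limma-voom (limma 3.58.1), sums without retained-intron entries, and leaving out each library. Named are the 9 members, per pathway list the 3 genes with the highest level and the 2 with the lowest p, Gadd45 genes, Mettl3, Cd4 and Mxd1 (other leading markers of the rule are given as list sums), and the 5 genes nearest to Map3k4. Some genes that the rule names are not reported here. Tab genes, Mapk14, Traf3, Relb and Ikbkg were named after their values were seen. Members and lists were chosen with earlier results of these data known. Libraries were numbered by order only. Each pair of libraries differed far beyond sampling noise, with 40.1 to 164.1 as chi-square over its degrees of freedom.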

Additional observations from a re-analysis of the deposited data

How the results depend on the processing

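The count of genes called between genotypes was 0 with edgeR, 17 with DESeq2 (0.137% of 12434), 27 without a low-count filter (0.11% of 24651), 0 with limma-voom and 0 to 4 with 1 library left out. Among the 9 kinases only DESeq2 made a call, of Map3k4, whose own values chose it, at a DESeq2 adjusted p of 0.048. Without retained-intron entries Map3k4 had too few fragments to be tested. Its fitted value was positive in all 10 other alternatives. With 0 fragments in both controls none of them could turn its sign, so this says nothing about how firm the difference is. When 1 library was dropped, log2 fold changes lay between -0.73 and 1.05 for Map3k1, -0.025 and 0.58 for Map3k2, -0.37 and 0.30 for Map3k3, -0.013 and 10.22 for Map3k5, -0.86 and 1.89 for Map3k8, -1.17 and 9.18 for Map3k11, and -1.21 and 11.25 for Map3k14, so each changed sign. Map3k3 also turned positive with upper-quartile factors (0.0039), without a filter (0.058) and without retained-intron entries (0.028), and Map3k14 with limma-voom (3.64). Values above 9 compare the knockouts with control 2 at 0 fragments; the cause of the other changes was not tested. Levels of the 9 kinases moved by less than the spread between libraries under both other scalings. No paired analysis was possible because the labels give no replicate numbers that the genotypes share. Whether the number in each title marks a date or an animal is not stated, and titles were not used as batches. At this depth, 3 fragments in a library are 0.655 to 0.792 CPM.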
